A study of Mus musculus with 8 samples.

Results

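The genes described here are 9 genes of steroid and oxysterol synthesis, namely Cyp11a1, Star, Stard3, Fdx1, Fdxr, Tspo, Cyp39a1, Nr5a1 and Cyp17a1. They were chosen by name and matched by identifier among the 53647 genes of the deposited count tables, and all 9 were found. RNA came from the lineage-negative, CD127-positive fraction of mouse bone marrow, in 4 libraries labelled WT (genotype Trerf1 +/+) and 4 labelled KO (genotype spelled Tref1 -/- in the labels). CD127 is the interleukin 7 receptor alpha chain, found on early lymphoid progenitors and innate lymphoid cells. Age, strain, the design of the knockout allele and whether each library is a separate animal are not given in the sources used here. The p-values therefore reflect only how far these libraries spread. In bulk RNA, fewer cells of a type and less RNA per cell cannot be told apart.

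Steroid synthesis starts when cholesterol reaches the inner mitochondrial membrane, where the side-chain cleavage enzyme encoded by Cyp11a1 turns it into pregnenolone. Star carries out the acute transfer of cholesterol in adrenal and gonad, Stard3 moves cholesterol at late endosomes, and Tspo is a cholesterol-binding protein of the outer mitochondrial membrane. Fdxr and Fdx1, a flavoprotein reductase and an iron-sulphur protein, pass electrons to mitochondrial cytochromes P450 such as Cyp11a1. Nr5a1 is the nuclear receptor that switches on this programme in steroid-making tissues, Cyp17a1 makes androgen precursors from pregnenolone, and Cyp39a1 hydroxylates oxysterols on the way to bile acids. Trerf1, the gene altered here, encodes a zinc finger factor first described as a regulator of Cyp11a1, and the question is whether these genes differ between knockout and wild type.

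The start-proximal sequence of Cyp11a1 is shown because that is the gene to which the altered factor was first tied. RefSeq gives 2 starts in GRCm38.p6, and each line holds 250 bases before and 50 bases after the start, on the plus strand of chromosome 9, with AGGTCA, the core element bound by nuclear receptors, in capitals. AGGTCA was searched on both strands, and so was the longer AAGGTCA, which contains it.
Cyp11a1, chr9:57997774-57998073: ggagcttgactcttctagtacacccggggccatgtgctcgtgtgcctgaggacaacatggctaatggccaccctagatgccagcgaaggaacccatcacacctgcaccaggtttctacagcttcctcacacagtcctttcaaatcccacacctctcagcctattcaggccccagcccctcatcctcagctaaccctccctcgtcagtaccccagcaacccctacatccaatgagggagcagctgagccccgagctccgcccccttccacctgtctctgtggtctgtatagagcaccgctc
Cyp11a1, chr9:58014702-58015001: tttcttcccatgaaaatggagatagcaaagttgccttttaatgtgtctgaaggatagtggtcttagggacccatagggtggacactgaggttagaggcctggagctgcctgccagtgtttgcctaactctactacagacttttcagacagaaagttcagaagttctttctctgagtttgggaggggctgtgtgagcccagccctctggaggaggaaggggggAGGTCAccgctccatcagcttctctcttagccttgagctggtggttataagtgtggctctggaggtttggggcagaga
The second window held AGGTCA 1 time and the first did not. The RefSeq windows of Stard3, Fdx1 and Fdxr held it 0 times, and AAGGTCA was found 0 times in any of the 5 windows. Of 32817 RefSeq windows of this length, 16.3% held AGGTCA and 4.72% held AAGGTCA on either strand. A match is a description of letters, not a binding site. The count files use other coordinates (GRCm39), and the 2 Cyp11a1 starts were not mapped onto the counted gene. Which start is used in these cells was not tested. Sequences for Star, Tspo, Cyp39a1, Nr5a1 and Cyp17a1 were not used here.

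Total counts ran from 31109744 to 73414626 per library, with WT2, WT4 and KO4 the 3 deepest. Among 14 genes of the gate and of lineage depletion, Il7r, which encodes CD127, was at 269 to 415 CPM (counts relative to library size, scaled by TMM factors) in every library, and Ly6g was at 0.0905 CPM or less. Trerf1 was at 29.0, 32.1, 27.1 and 22.3 CPM in WT1 to WT4. It was at 13.4, 12.8 and 12.1 CPM in KO1 to KO3 and at 22.1 CPM in the library labelled KO4, so that library does not show the reduction of the other 3. The fold changes of the 7 expressed genes are also given without it, and the group means and pathway values below include it.

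Of the 9 genes, 7 were expressed, that is, kept by the count filter and at a mean of at least 1 CPM, and 2 were silent. Nr5a1 and Cyp17a1 had 0 counts in all 8 libraries. If each count were an independent event, this would allow at most 3 counts. That is 0.0409 to 0.0964 CPM by library total, without TMM scaling, depending on the library. However, 1 sequenced fragment can give several counts, as described under the processing, so the true limit is higher and was not computed. The limit given covers counting error of independent counts only. Nr5a1 lies on chromosome 2 (38582668 to 38604554, minus strand) and Cyp17a1 on chromosome 19 (46655604 to 46661611, minus strand), in the GRCm39 coordinates of the count files, as below. Of 11 markers of the steroid-making cells of adrenal and gonad, 6 were at 0 counts in every library, namely Nr5a1, Cyp17a1, Cyp11b1, Cyp21a1, Hsd3b1 and Cyp19a1.

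Per length, the 7 expressed genes differed widely in level. Tspo led at a mean of 315 RPKM (counts per kilobase of exon on the TMM-scaled CPM, 8 libraries, range 239 to 394), and Stard3 followed at 30.0 RPKM (24.4 to 37.9). The electron carriers Fdxr and Fdx1 were at 12.1 RPKM (9.74 to 14.3) and 9.87 RPKM (9.29 to 11.1), and their ranges overlapped. Cyp39a1 at 1.24 RPKM, Star at 0.928 RPKM and Cyp11a1 at 0.497 RPKM formed the low end, each overlapping its neighbour in range. Between Fdx1 and Cyp39a1 lay a gap of 7.98-fold in mean level, and the ranges of Tspo, Stard3 and the electron carriers did not overlap one another. By the RSEM TPM values, which use another effective length, Fdx1 (45.4 TPM) stood above Fdxr (23.6 TPM) and Cyp11a1 (1.46 TPM) above Star (1.12 TPM), so the order within these pairs is not settled.

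**Figure D1:**
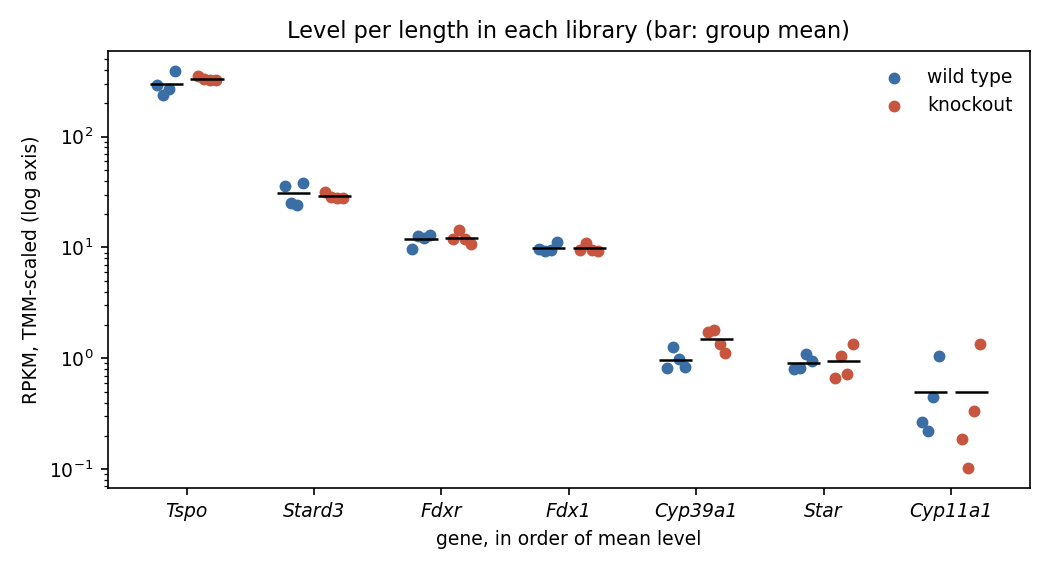
Level of each expressed gene per length, as TMM-scaled RPKM on a log axis, with 1 point per library (wild type blue, knockout red) and a bar at the group mean (n = 4). Tspo sits between 239 and 394 RPKM, and Cyp11a1 spreads from 0.103 to 1.36 RPKM within the low group.

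None of the 7 tested genes passed the threshold between knockout and wild type. All 16352 genes kept by the filter were fitted in edgeR (quasi-likelihood test, Benjamini-Hochberg adjustment over all of them), and 0 of the 7 had an adjusted p under 0.05, against 0% of all genes tested. At an unadjusted p under 0.05 stood 1 of the 7, Cyp39a1, against 1.97% of all genes in either direction and 1.04% with a higher estimate in knockout. Of the 7 estimates, 5 were higher and 2 lower in knockout, where 51.7% of all genes tested had a higher estimate. The median log2 fold change of the 7 was 0.04, beside 0.01 over all genes tested. In simulated data with the means and dispersions of this comparison, 15967 genes were tested. Changes were planted only in genes above a minimum mean count. There edgeR recovered 63% of 100 genes changed 2-fold and 93% of 100 changed 4-fold, with 8 false calls. These are averages over the planted genes and do not give the recovery for a gene as variable as Cyp11a1. The change was planted in all 4 knockout libraries, and each gene was drawn on its own. Shifts shared by many genes, or a knockout library without the change, are not in the simulation. Recovery under such conditions was not tested.

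**Figure D2:**
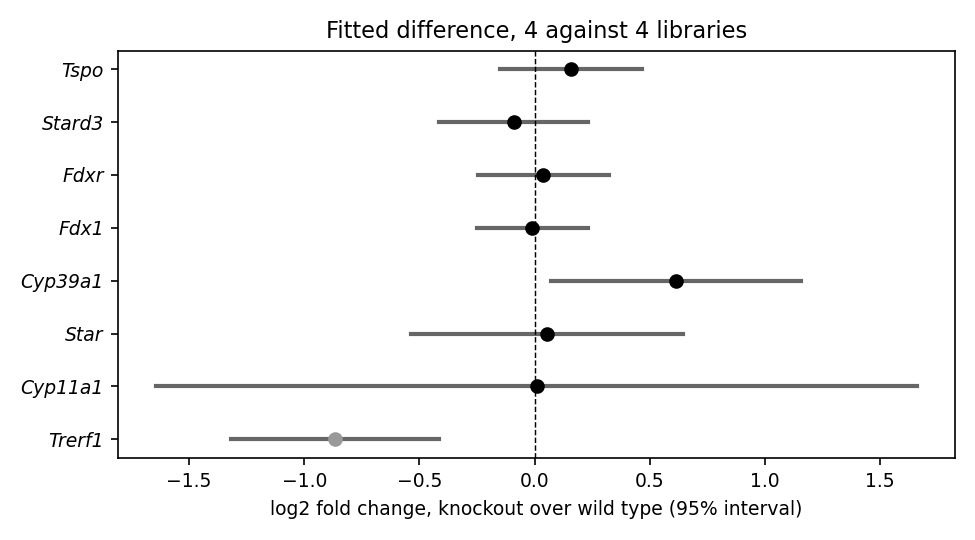
Fitted log2 fold change of knockout over wild type with its 95% interval, for the 7 expressed genes and, in grey, Trerf1 (4 against 4 libraries). The intervals of Tspo, Stard3, Fdxr and Fdx1 stay within -0.42 to 0.47, whereas that of Cyp11a1 runs from -1.64 to 1.66.

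Cyp11a1 was low, and it varied more between libraries than between genotypes. The gene (ENSMUSG00000032323.14, chromosome 9, 57913694 to 57934306, plus strand) gave 44, 70, 71 and 354 counts in WT1 to WT4, against 32, 16, 52 and 433 counts in KO1 to KO4. As CPM these were 1.28, 1.06, 2.18 and 5.05 in wild type, against 0.892, 0.494, 1.599 and 6.53 in knockout. The highest library of each group was number 4, and the groups overlapped over most of their range. Wild type averaged 2.39 ± 1.84 CPM, and knockout 2.38 ± 2.81 CPM (SD, n = 4 each). The log2 fold change was 0.01 ± 0.75 (SE), with a 95% interval of -1.64 to 1.66 and an adjusted p of 0.999 by edgeR, so changes of up to about 3.16-fold upward and down to 0.320 of wild type lie inside the interval.

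The sign of the Cyp11a1 estimate changed between settings. Without the library labelled KO4, the estimate turned to -1.27 (adjusted p 0.861, edgeR), and omitting both WT4 and KO4 gave -0.59 (adjusted p 0.734). Without WT4 alone it was 0.69 (adjusted p 0.860). It was also below 0 without WT1 (-0.20), WT2 (-0.25) or WT3 (-0.040). None of the 24 alternatives tried carried it past the threshold. RSEM expected counts gave the same picture, at 9, 13, 19 and 74 in WT1 to WT4, against 11, 4, 12 and 83 in KO1 to KO4.

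Of 4164 tested genes with a mean from 1 to 10 CPM, 1.66% had a larger coefficient of variation over the 8 libraries than Cyp11a1 (92.1%, against a median of 28.4%). Of its exonic bases 145, or 3.02% of its length, also belong to exons of Gm17322 on the same strand, and reads there that overlapped both genes were not counted. Gm17322 itself was at 1.59 to 3.72 CPM and, as for Cyp11a1, WT4 was the highest wild-type library (3.05 CPM), whereas KO4 was the lowest knockout library (2.32 CPM).

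The Cyp11a1 level ran with transcripts of basophils and mast cells, granulocytes of allergy that store proteases and histamine. The antibodies of the lineage depletion are not used here to say whether it removes them. The summed level of 11 such markers was 102, 152, 313 and 362 CPM in WT1 to WT4, against 103, 84.2, 187 and 450 CPM in KO1 to KO4. Their order was close to that of Cyp11a1: KO2 was lowest in both and WT4 and KO4 were highest in both. Over the 8 libraries, log2 levels had Pearson's r of 0.940 (two-sided exact permutation p 0.000198, adjusted 0.00139 over 7 marker lists) and Spearman's rho of 0.929 (exact permutation p 0.00223, adjusted 0.0156). With WT4 and KO4 left out, the 2 libraries farthest from the median, r was 0.863 over 6 libraries. Both measures come from the same libraries and scaling, and groups of 4 are too small for a value within each genotype. The lists and tests were chosen with earlier results of these data known. The permutation p-values therefore describe these 8 libraries and are not independent support.

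Of the 11 genes, 7 were highest in WT4 among wild-type libraries and in KO4 among knockout ones, among them Prss34, Mcpt8 and Cd200r3. Prss34, a basophil protease, was at 13.6, 16.4, 94.4 and 220 CPM in WT1 to WT4 and at 14.5, 15.0, 75.8 and 249 CPM in KO1 to KO4. Mcpt8, another basophil protease, was at 5.05, 4.73, 24.8 and 36.4 CPM and at 5.66, 4.60, 13.7 and 48.2 CPM. The surface receptor gene Cd200r3 was at 0.580, 0.789, 4.81 and 8.54 CPM and at 1.06, 0.185, 4.67 and 9.79 CPM. Of the defining mast cell protease genes, Tpsb2 was at 0 in every library, and Cma1 was at 0 in 7 libraries with 0.211 CPM in KO4. Cpa3, another mast cell protease gene, followed Cyp11a1 less closely (r = 0.432), at 66.7 CPM in WT3 and 32.9 CPM in WT4. Il1rl1, a receptor gene also found in innate lymphoid cells, was likewise highest in WT3, at 105 CPM, with 36.4 CPM in WT4 (r = 0.257). These genes were named after their values were seen.

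By summed level, no other marker list followed Cyp11a1 as closely over all 8 libraries. Single genes of other lists, picked here by value, did reach a like size. Among them were Areg of the group 2 innate lymphoid list (r = 0.904), Ptprc (0.891) and Flt3 (-0.896) of the gate list and Lyz2 of the monocyte list (-0.895). Others were near 0, such as Cd4 (0.065) and Csf1r (-0.057). Pearson's r was -0.625 for erythroid genes (exact permutation p 0.103), 0.502 for genes of group 2 innate lymphoid cells (p 0.202), and from -0.205 to 0.193 for gate, T cell, monocyte and stromal lists (exact permutation p 0.635 to 0.734). Over the 6 libraries other than WT4 and KO4, however, r was 0.882 for the innate lymphoid list, -0.870 for the stromal list and -0.662 for the gate list, beside 0.863 for basophil and mast cell genes. In those 6 libraries the basophil and mast cell list therefore did not stand apart. The summed basophil and mast cell level, here without Il1rl1, was also used as covariate, chosen after seeing the data. With it the Cyp11a1 log2 fold change was -0.24 (adjusted p 0.961, edgeR). The part of these cells in the Cyp11a1 level was not tested.

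**Figure D3:**
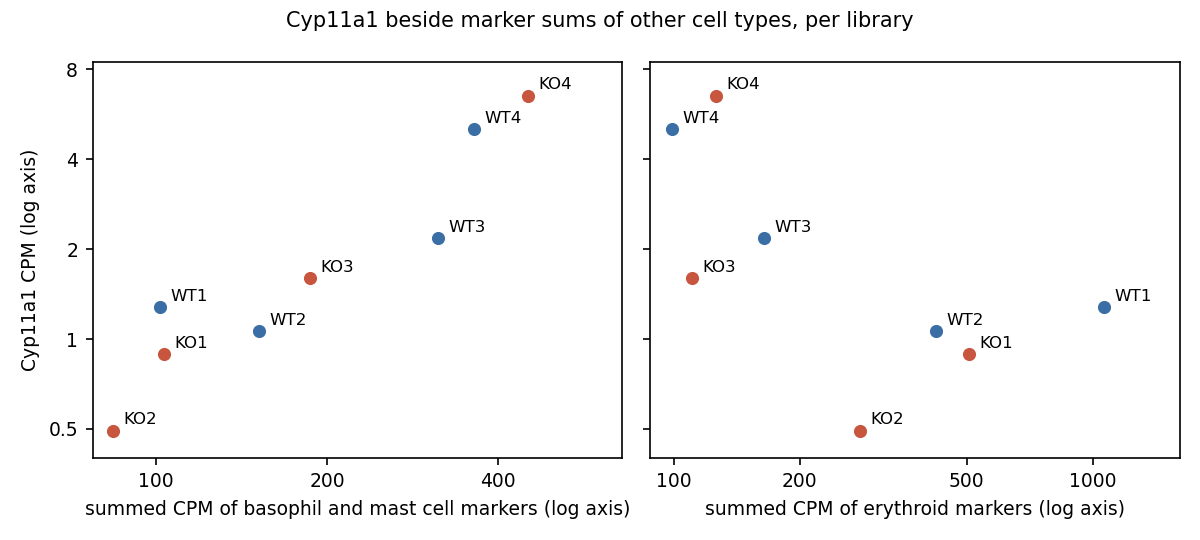
Cyp11a1 CPM of each library against the summed CPM of basophil and mast cell markers (left) and of erythroid markers (right), all on log axes, wild type blue and knockout red. On the left the libraries run from KO2 (84.2 and 0.494 CPM) to KO4 (450 and 6.53 CPM) with both genotypes intermixed.

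Among the 8728 other genes with a mean of at least 10 CPM, those with a pattern most like Cyp11a1 were Noc3l (r = 0.976 over 8 libraries, log2 CPM) and Nmt2 (r = 0.974). Noc3l spanned 1.41-fold and Nmt2 1.45-fold between its lowest and highest library, against 13.2-fold for Cyp11a1, so both varied far less. Nr4a1, a nuclear receptor on the list of regulators of steroid genes, was likewise highest in the number 4 libraries, at 113, 203, 163 and 500 CPM in WT1 to WT4, against 78.0, 143, 306 and 425 CPM in KO1 to KO4.

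Of the cholesterol carriers, Star was low and spanned 2.02-fold between its lowest and highest library. Star (ENSMUSG00000031574.9, chromosome 8, 26296583 to 26306010, plus strand) gave 96 to 366 counts per library. It was at 3.31, 3.35, 4.48 and 3.88 CPM in WT1 to WT4 and at 2.73, 4.32, 2.95 and 5.52 CPM in KO1 to KO4. The knockout libraries lay both below and above all wild-type ones. The log2 fold change was 0.05 ± 0.27 (SE, 95% interval -0.54 to 0.64, adjusted p 0.999, edgeR), and it turned to -0.17 without the library labelled KO4. Rgcc (r = 0.939) and Cdk8 (r = 0.930) had the most similar pattern over the 8 libraries.

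Stard3, a relative of Star that shares its cholesterol-binding domain, was 20.8 to 47.3 times as abundant as Star per length in each library. Stard3 (ENSMUSG00000018167.11, chromosome 11, 98249194 to 98271938, plus strand) was at 128, 89.9, 86.7 and 135 CPM in WT1 to WT4 and at 112, 102, 99.3 and 99.5 CPM in KO1 to KO4. All knockout libraries fell inside the wild-type range. The log2 fold change was -0.09 ± 0.15 (SE, 95% interval -0.42 to 0.23, adjusted p 0.999, edgeR). It was 0.023 without WT4 and -0.075 without the library labelled KO4. Gpr146 (r = 0.962) and Pqlc2 (r = 0.956) were most like it in pattern.

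Tspo was the most abundant of the 9 genes and the most even within knockout. Tspo (ENSMUSG00000041736.8, chromosome 15, 83447793 to 83458404, plus strand) was at 305, 251, 282 and 414 CPM in WT1 to WT4 and at 367, 351, 341 and 338 CPM in KO1 to KO4. WT4 was above every knockout library and the other 3 wild-type libraries were below every one of them. The log2 fold change was 0.16 ± 0.14 (SE, 95% interval -0.15 to 0.47, adjusted p 0.999, edgeR). It was 0.17 without the library labelled KO4 and 0.060 without WT2. Without WT4 it was 0.32 with an unadjusted p of 0.00594 and an adjusted p of 0.793 by edgeR, and omitting both WT4 and KO4 gave 0.34 (adjusted p 0.371). Mcfd2 (r = 0.987) and Nup35 (r = 0.978) had the most similar pattern. Tspo shares 53 exonic bases, 5.04% of its length, with Mcat on the opposite strand.

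The electron carriers were the steadiest of the set. Fdx1 (ENSMUSG00000032051.10, chromosome 9, 51854606 to 51874856, minus strand) was at 30.2, 28.8, 29.4 and 34.6 CPM in WT1 to WT4 and at 29.6, 34.3, 29.2 and 29.0 CPM in KO1 to KO4. Its coefficient of variation over the 8 libraries was 7.81%, and 85.7% of 6503 genes between 10 and 100 CPM varied more. The log2 fold change was -0.01 ± 0.11 (SE, 95% interval -0.25 to 0.23, adjusted p 0.999, edgeR), and 0.015 without the library labelled KO4.

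Fdxr (ENSMUSG00000018861.9, chromosome 11, 115158850 to 115167876, minus strand) was at 27.3, 35.8, 34.3 and 36.2 CPM in WT1 to WT4 and at 33.3, 40.2, 33.5 and 30.4 CPM in KO1 to KO4. The groups overlapped, and the log2 fold change was 0.04 ± 0.13 (SE, 95% interval -0.24 to 0.32, adjusted p 0.999, edgeR). Without the library labelled KO4 it was 0.093. Per length, the ratio of Fdx1 to Fdxr lay between 0.727 and 0.997 in the 8 libraries. The genes most like Fdx1 in pattern were Creld1 (r = 0.959) and Arpc1a (r = 0.945), and those most like Fdxr were Fau (r = 0.937) and Rpl26 (r = 0.933), both of which encode ribosomal proteins.

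Cyp39a1 had the largest estimate of the set, higher in knockout, and did not pass. Cyp39a1 (ENSMUSG00000023963.11, chromosome 17, 43978316 to 44062322, plus strand) gave 86, 254, 98 and 180 counts in WT1 to WT4, against 188, 179, 135 and 225 counts in KO1 to KO4. As CPM these were 2.49, 3.85, 3.005 and 2.57 in wild type, against 5.24, 5.52, 4.15 and 3.39 in knockout. In knockout, 3 libraries were above every wild-type library, and the library labelled KO4, in which Trerf1 was not low, was below WT2. The group means were 2.98 ± 0.624 and 4.58 ± 0.987 CPM (SD, n = 4 each).

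The Cyp39a1 log2 fold change was 0.61 ± 0.25 (SE, 95% interval 0.07 to 1.16), or 1.53-fold, with an unadjusted p of 0.0301 and an adjusted p of 0.999 by edgeR, rank 154 of 16352 genes by p. Leaving out the library labelled KO4 gave 0.74 (unadjusted p 0.0122, adjusted p 0.641, edgeR). In 5 of the 8 fits that omit 1 library, however, the unadjusted p was above 0.05, at 0.0786 without WT1, 0.055 without WT3, 0.0677 without WT4, 0.078 without KO1 and 0.0812 without KO2. Among the 3 deeper libraries, with 1 knockout library, it was 0.04. RSEM expected counts gave 0.72 (unadjusted p 0.0257, adjusted p 0.9999). As TPM the means were 1.67 ± 0.51 in wild type and 2.54 ± 0.291 in knockout (SD, n = 4 each).

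Cyp39a1 is the only one of the 9 genes on the chromosome of Trerf1. Its start lies 3473 kb from the start of Trerf1 on chromosome 17. The gene most like it in pattern over the 8 libraries was H2-Q6 (r = 0.978), which also lies on chromosome 17 (35643826 to 35649031) and has close relatives in sequence, between which reads may be split, followed by Cpsf2 (r = 0.963).

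**Figure D4:**
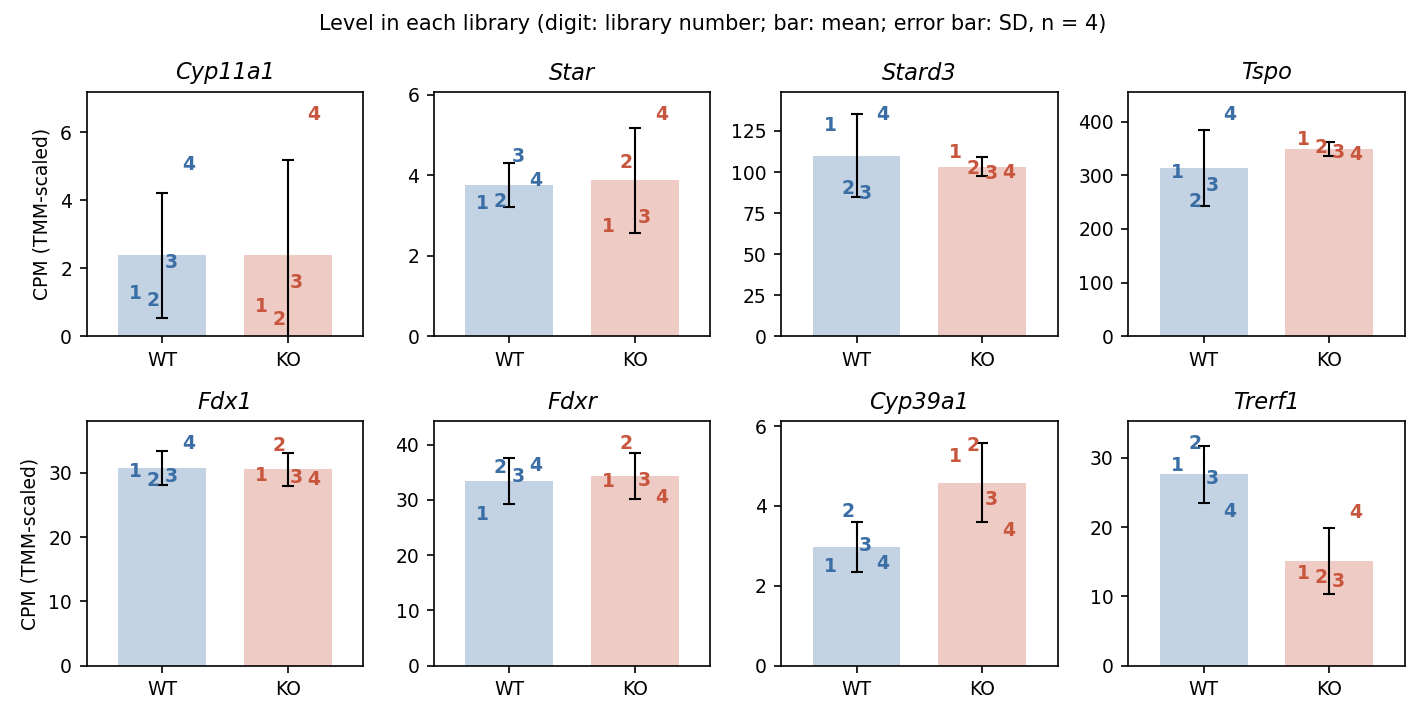
CPM of the 7 expressed genes and Trerf1 in each library. Digits give the library number, bars the group mean and error bars the SD (n = 4), with the lower arm for Cyp11a1 in knockout cut at 0. Number 4 is highest in both groups for Cyp11a1, and numbers 1, 2 and 3 of the knockout exceed all wild-type libraries for Cyp39a1.

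Of the other genes of the pathway, 96 in 6 lists, 0 passed the threshold with all 8 libraries. Trerf1, one of them, passed with WT4 and KO4 both omitted (log2 fold change -1.20, adjusted p 0.0473, edgeR). Of the 96 genes, 95 were found (Sts was not), and 18 of these were at 0 counts in every library. Over all genes tested, 51.7% had a higher estimate, to be set beside the counts below. Of the 62 tested here, 31 had higher and 31 lower estimates. Their median log2 fold change was -0.0037, beside 0.01 over all genes tested, and 1 of the 62, Trerf1 itself, had an unadjusted p under 0.05.

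Enzymes downstream of pregnenolone were present in part. Of 23 found, 7 were at 0 in every library, 7 were at trace levels and 9 were expressed, with 4 of 10 tested members higher in knockout. Those expressed included 2 hydroxysteroid dehydrogenases with wider roles, Hsd17b10 at 68.3 RPKM and Hsd17b12 at 60.8 RPKM. Hsd17b10, a mitochondrial enzyme, was at 83.7 ± 8.20 CPM in wild type against 93.8 ± 6.40 in knockout (SD, n = 4 each). Srd5a3, a polyprenol reductase of glycosylation, was at 35.7 ± 2.73 and 33.6 ± 4.15 CPM. Hsd11b1, named after its values were seen, was also expressed, at 10.1 RPKM. It was at 36.4 ± 18.8 CPM in wild type against 49.3 ± 24.7 in knockout (SD, n = 4 each). Its log2 fold change was 0.44 (adjusted p 0.999, edgeR).

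Genes of cholesterol supply and transfer were nearly all present, with 18 of 19 expressed and 7 of 18 tested members higher in knockout. Npc2, which carries cholesterol inside lysosomes, was at 117 RPKM, and Vdac1, the channel of the outer mitochondrial membrane, at 77.8 RPKM. Cyb5a, an electron donor to microsomal enzymes, was at 89.3 ± 10.8 CPM in wild type against 103 ± 6.48 in knockout (SD, n = 4 each). Mfn2, a mitochondrial fusion protein, was at 69.9 ± 4.58 and 62.0 ± 2.46 CPM, neither passing (adjusted p 0.999 each, edgeR).

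Among enzymes of oxysterols and bile acids, 4 of 13 were expressed and 4 were at 0. Cyp27a1, the mitochondrial sterol hydroxylase, was at 29.5, 16.2, 10.1 and 35.6 CPM in WT1 to WT4 and at 26.7, 15.9, 17.8 and 28.8 CPM in KO1 to KO4. Both groups covered much the same range (log2 fold change -0.04 ± 0.35, SE, adjusted p 0.999, edgeR). Scp2, the peroxisomal sterol carrier, was at 169 ± 17.5 and 188 ± 12.96 CPM (SD, n = 4 each). Ch25h and Cyp7b1 both act in making ligands of the migration receptor Gpr183. They were at trace levels of 0 to 0.607 CPM and 0.0613 to 1.004 CPM.

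The receptors of oxysterols were present. Gpr183 was at 28.8 ± 7.30 CPM in wild type against 33.0 ± 17.4 in knockout (SD, n = 4 each), and Nr1h2, a nuclear oxysterol receptor, was at 154 ± 11.1 and 161 ± 11.6 CPM. Nr1h3, its relative, was at a trace level of 0.330 ± 0.165 and 0.496 ± 0.373 CPM. Of 11 tested receptors and targets 7 had higher estimates, among them the phospholipid enzyme gene Lpcat3 with a log2 fold change of 0.02. Srebf1, a target that drives lipid synthesis, was at 118 ± 28.6 and 95.7 ± 16.9 CPM.

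Of 20 regulators of steroid genes, 11 were expressed and 6 were at 0, including Nr0b1, Gata6 and Wt1. The coactivator gene Crebbp was at 241 ± 29.1 CPM in wild type against 241 ± 24.1 in knockout (SD, n = 4 each), and Cited2 at 11.5 ± 4.24 and 14.0 ± 1.92 CPM. Of 8 steroid receptor genes 7 were expressed and Esr2 was at 0. Nr3c1, the glucocorticoid receptor, was at 119 ± 10.3 and 125 ± 11.8 CPM. The membrane-associated Pgrmc1 and Pgrmc2 were at 142 ± 8.84 against 145 ± 4.44 CPM and 6.18 ± 0.962 against 6.93 ± 1.08 CPM.

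**Figure D5:**
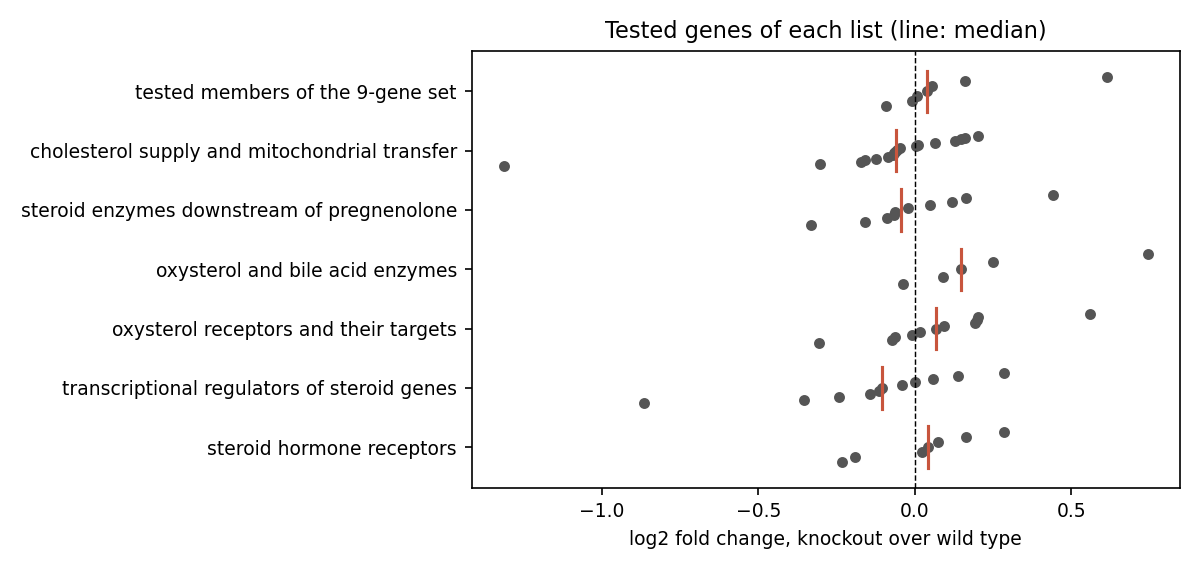
Fitted log2 fold change of knockout over wild type for each tested gene of the 9-gene set and of the 6 other lists, with a line at the list median. List medians lie between -0.11 and 0.15, with Cyp39a1 (0.61) highest in the 9-gene set and Trerf1 (-0.87) lowest among the regulators.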

How the data were processed

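The authors deposited whole-number read counts per gene for each library, made per the file headers with featureCounts 1.6.4 on alignments with duplicates marked. They also deposited RSEM expected counts (estimated fragments) and TPM, for which the submitters' processing notes name RSEM 1.3.1, STAR 2.6.0a and Picard 2.19. The notes name mm10, whereas the count header names GRCm39. No strand option is shown in the header. Counts were 3.67 to 4.00 times the expected counts per library, so 1 fragment can give several counts and low counts are less precise than they look.

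Symbols were matched by identifier (52093 of 53647). The counts went into edgeR 4.0.16 under R 4.3.3 (filterByExpr, TMM, quasi-likelihood test, no covariate), adjusted over all 16352 genes with a threshold of 0.05. Intervals are 95%. Likeness used log2 CPM with a prior count of 3. Expected counts were rounded for edgeR. Steps were tested on simulated data. Alternatives included DESeq2 1.42.0 and limma 3.58.1 (voom with quality weights). The genes, lists and tests were chosen with earlier results of these data known. Besides the 9 genes, Trerf1 and Hsd11b1, pathway genes were named by a rule. Per list it takes the 2 of highest RPKM and the one of smallest p in each direction. It adds Ch25h, Cyp27a1, Cyp7b1 and Gpr183, and per expressed gene the 2 most like it. One gene that this rule names is not reported here. No 2 libraries of a group agreed within sampling noise (chi-square per gene at least 31.3).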

Additional observations from a re-analysis of the deposited data

Results flagged for a closer look

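Among 16 groups of 4 CPM values, for the 7 expressed genes and Trerf1, 2 held a library far from the other 3, where chance alone marks about 1 in 20 groups. For Fdx1 in knockout, KO2 (34.3 CPM) stood above the other libraries (29.0 to 29.6 CPM), with a gap of 0.883 of the whole range. For Trerf1 in knockout, the library labelled KO4 (22.1 CPM) stood above the others (12.1 to 13.4 CPM), with a gap of 0.876 of the range. For Cyp11a1 in knockout the gap of KO4 was 0.817 of the range, just under the limit.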

How the results depend on the processing

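The 0 genes called became 12 with WT4 and KO4 left out together, 4 in the libraries without Xist (WT2, WT3 and KO2) and 2 in the 3 deeper libraries (WT2, WT4 and KO4). The last 2 fits have 1 knockout library, which is assumed to vary like the wild-type ones. None of these calls is one of the 9 genes, and Trerf1 is among the 12. The count stayed 0 under the other alternatives. The cause was not tested. Xist was above 10 CPM in WT1, WT4, KO1, KO3 and KO4 and not in WT2, WT3 and KO2. This class is therefore spread unevenly over the genotypes, and no sex was assigned from it. DESeq2 had 565 genes and limma-voom 891 at an unadjusted p under 0.05. Of the 7 expressed genes, 3 kept their place in the order by RSEM TPM. Cyp39a1 kept its direction in all 24 alternatives (0.036 to 0.85, with adjusted p no lower than 0.513).

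Cyp11a1 turned direction in 15 of 24: -0.0072 with RLE factors, -0.015 with no filter, -0.022 with DESeq2, -0.30 with limma-voom, -0.54 with Xist class as covariate, -0.59 without WT4 and KO4, -0.074 in libraries with Xist, -1.70 in those without (1 knockout library), -0.79 in the 5 shallower libraries, -0.24 with the basophil covariate, -0.20 without WT1, -0.25 without WT2 and -0.040 without WT3. Star turned to -0.087 with limma-voom, -0.15 without WT4 and KO4 and -0.22 in the shallower libraries. Stard3 turned to 0.039 without WT4 and KO4 and 0.19 in libraries without Xist. Fdx1 turned to 0.0038 with limma-voom, 0.076 without WT4 and KO4, 0.22 in libraries without Xist and 0.062 in the shallower libraries. Fdxr turned to -0.28 in the 3 deeper libraries, and Tspo to -0.048 in libraries with Xist and -0.011 in the deeper ones. With 1 library left out in turn, log2 fold changes ran from -1.27 to 0.69 for Cyp11a1, -0.17 to 0.18 for Star, -0.19 to 0.023 for Stard3, -0.071 to 0.054 for Fdx1, -0.055 to 0.093 for Fdxr, 0.060 to 0.32 for Tspo and 0.51 to 0.76 for Cyp39a1.

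With the replicate number as a block, 0 genes were called, 634 had an unadjusted p under 0.05, and Cyp11a1 was at -0.38. Same-numbered libraries correlated in their deviations from the group means at 0.362, 0.309, -0.031 and 0.119 for numbers 1 to 4. Between wild-type and knockout libraries of different number, the values ran from -0.25 (WT3 with KO1) to 0.204 (WT4 with KO3). The values 0.362 and 0.309 lay above this range, and -0.031 and 0.119 lay inside it. Whether the number marks a pairing is therefore not settled, and the main fit did not use it.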
